A study of Mus musculus with 6 samples.

Results

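The genes described here are the cell cycle and DNA replication genes measured in conventional dendritic cells (DCs) from the inbred mouse strain BALB/c. The cells were sorted from spleen or from lymph node as positive for CD11c, the integrin encoded by Itgax, and 3 arrays were labelled for each organ. Genotype, treatment and age are not stated beyond the strain, and nothing says whether the 3 arrays of a group came from separate animals or pools, so that each p-value speaks only of how much these arrays vary, and that variation may be technical. A list of 47 gene symbols was matched to the annotation of the Affymetrix 3′ arrays, and each gene was read from the one-symbol probe set that was brightest on average across the 6 arrays. Of the 47 genes, 46 were measured, out of 12393 genes in all, and Ccnb1 was not analysed here. By their role, 20 of the 46 belong to mitosis, 18 to DNA replication and 8 to the G1 phase and its inhibitors.

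A cell that divides first passes G1, in which D cyclins and then E cyclins switch on cyclin-dependent kinases (CDKs) and release the E2F transcription factors. These switch on the genes that load the MCM helicase on replication origins, copy the DNA and make its nucleotides. The mitotic cyclins, kinases and spindle genes follow after replication. Conventional DCs are short-lived cells that are replaced by dividing precursors, and a share of the DCs in lymphoid organs still divides. On bulk arrays, fewer dividing cells and less of these RNAs per cell cannot be told apart.

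Values are log2 of the deposited intensity, on which the median gene stood at 5.46, and a difference below 0 means lower in the arrays labelled spleen than in those labelled lymph node. No filter on level was applied, and 34 of the 46 members lay above the median gene. Across all genes, 421 of 12393 (3.40%) passed an adjusted p of 0.05 in limma, a test that shares information on the spread between genes. The conventional DC markers Zbtb46 (8.70 to 9.27) and H2-Ab1 (11.82 to 12.60) were high on all 6 arrays. However, Ccr7 and Ccl22, which mark the migratory DCs of lymph nodes, were 2.77-fold (adjusted p = 0.0496) and 31.3-fold (adjusted p = 7.93e-05) higher in the arrays labelled spleen, a direction opposite to what the labels would give. Group names here are the labels alone. Summed intensities of 8 plasmacytoid DC markers were 543 to 1180.0 in the lymph node arrays and 1532 to 5114 in the spleen arrays, where 3 of the 8 passed as higher and 0 as lower. Summed intensities of 10 conventional DC markers were 17374 to 18245 in the lymph node arrays and 10222 to 14790 in the spleen arrays. H2-Ab1 and Cd74 made up most of these sums. Of the 10, 2 (Itgax and Sirpa) passed as lower in the spleen arrays and 0 as higher. Irf8 and Xcr1 were higher there without passing (differences 1.67 and 1.14, adjusted p = 0.156 and 0.270), while the others were lower. The bacterial poly-A control probe sets had mean levels of 6.82 to 7.31 in the lymph node arrays and 7.71 to 8.29 in the spleen arrays.

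Between the organs, 1 of the 46 members passed the test. Ccnd1, the gene of cyclin D1, was 2.03-fold lower in the arrays labelled spleen, and 0 members passed as higher, against 1.37% of all genes passing as lower and 2.03% as higher. The groups did not overlap for 6 of the 46 members (13.0%), against 24.5% of all genes. The median difference was 0.03 over the members and -0.01 over all genes. An unadjusted p under 0.05 was found for 6 members, and 19.0% of all genes had one.

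**Figure D1:**
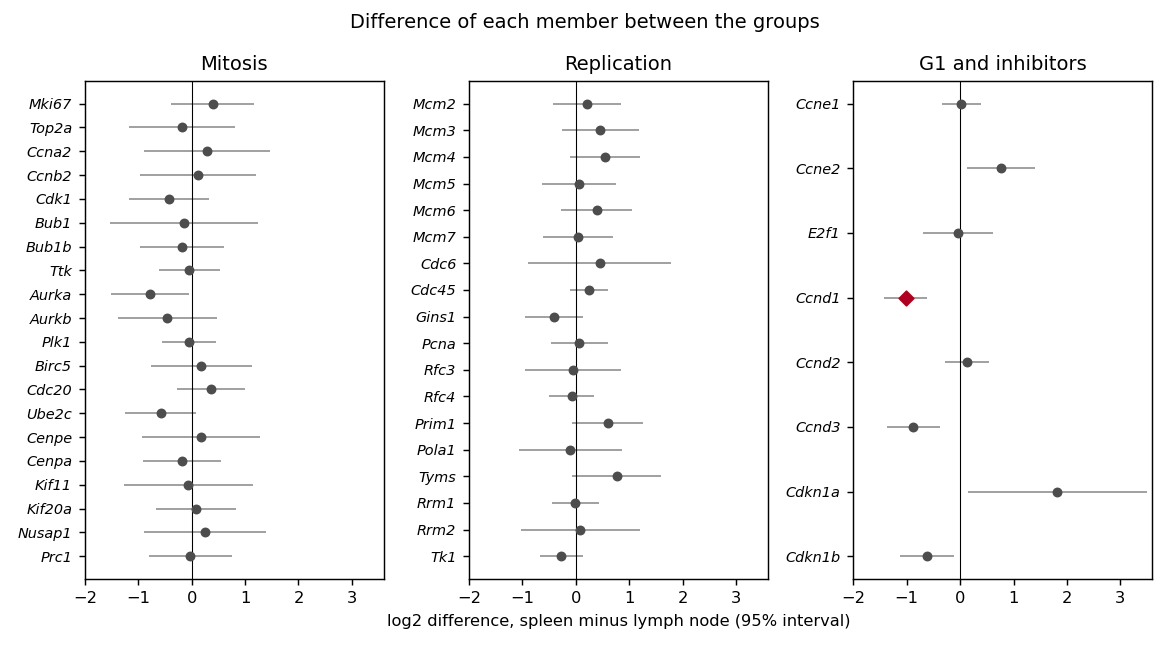
Log2 difference of each of the 46 measured members, arrays labelled spleen minus arrays labelled lymph node, with its 95% interval from limma (3 arrays per group). The red diamond marks Ccnd1, the member that passed an adjusted p of 0.05, and grey points mark the others. The intervals of all mitosis members except Aurka, and of all replication members, include 0.

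The mitosis members were measured in 20 genes. None passed the test (0 of 20, smallest adjusted p 0.234; 1 of 20 had an unadjusted p under 0.05), and in 0 of 20 did the groups stay apart. Their median difference was -0.05, with 8 differences above 0 and 12 below. The proliferation marker Mki67, a coat protein of mitotic chromosomes, had levels of 9.28, 9.71 and 9.28 in the lymph node arrays and 10.18, 10.24 and 9.03 in the spleen arrays. Spleen array 3 was thus the lowest of all 6 and the other spleen arrays the highest, and the difference of 0.39 had a 95% interval from -0.38 to 1.16 (adjusted p = 0.595). Top2a, the topoisomerase that untangles sister DNAs, had levels of 6.26, 6.92 and 5.84 in the lymph node arrays and 6.22, 6.93 and 5.32 in the spleen arrays (difference -0.18, interval -1.17 to 0.81, adjusted p = 0.875).

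The mitotic engine is Cdk1 bound to a cyclin of type A or B. Cdk1 itself had levels of 5.75, 6.86 and 5.78 in the lymph node arrays and 5.63, 6.06 and 5.43 in the spleen arrays. Its difference was -0.42 (interval -1.18 to 0.33, adjusted p = 0.556), and array 2 was the highest of its group in both organs. The cyclin gene Ccnb2 had levels of 6.04, 6.43 and 5.33 against 6.53, 6.64 and 4.98 (difference 0.12, interval -0.97 to 1.21, adjusted p = 0.928). Ccna2, the cyclin of S phase and early mitosis, spanned 1.14 log2 units within the lymph node arrays and 1.87 within the spleen arrays, which exceeded its difference of 0.29 between the organs.

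Among the kinases of the spindle and of cytokinesis, Aurkb had levels of 5.84, 6.87 and 5.58 in the lymph node arrays and 5.94, 6.02 and 4.96 in the spleen arrays (difference -0.46, interval -1.38 to 0.47, adjusted p = 0.609). Plk1, the Polo kinase of mitotic entry, had levels of 5.32, 5.90 and 5.25 against 5.51, 5.22 and 5.58 (difference -0.05, interval -0.56 to 0.46, adjusted p = 0.932). Plk1 was the mitosis member with the smallest spread, 0.29 (SD within groups), and the one whose highest spleen array was array 3. Aurka, the Aurora kinase of the spindle poles, had levels of 5.57, 5.48 and 4.94 against 5.09, 4.65 and 3.93. Spleen array 1 lay among the lymph node arrays, and the difference of -0.78, the largest of the 20, came with an interval from -1.51 to -0.05, but an adjusted p of 0.234. The checkpoint kinase genes Bub1, Bub1b and Ttk had differences of -0.15, -0.18 and -0.04. Ube2c and Cdc20, which serve the ubiquitin ligase that starts anaphase, had differences of -0.58 and 0.37. The 6 genes of centromere, motors and spindle, Cenpe, Cenpa, Kif11, Kif20a, Nusap1 and Prc1, had differences between -0.18 and 0.25 by their brightest probe sets. The sign depended on the probe set in some mitosis members, since it was held by 1 of 3 for Cdc20 and Kif11 and by 1 of 2 for Top2a and Bub1. Another probe set of Kif11 had 0.71. For Ccna2, Aurkb, Nusap1 and Prc1 all probe sets had the same sign.

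The replication members were measured in 18 genes, and 0 passed as higher or lower (smallest adjusted p 0.301; 0 with an unadjusted p under 0.05). Their median difference was 0.07, with 12 differences above 0 and 6 below. The 6 subunits of the MCM helicase, which opens the double helix, all had differences above 0 (0.03 to 0.54, median 0.30), but none passed. Mcm2 had levels of 5.65, 5.51 and 4.63 in the lymph node arrays and 5.59, 5.30 and 5.54 in the spleen arrays, so that lymph node array 3 stood alone below the others. Mcm5 had levels of 7.14, 6.83 and 6.18 against 6.91, 7.09 and 6.33 (difference 0.06, adjusted p = 0.940), and Mcm7 had levels of 9.26, 9.54 and 9.28 against 9.85, 9.58 and 8.76 (difference 0.03, adjusted p = 0.967). The groups of Mcm5 overlapped, while for Mcm7 spleen arrays 1 and 2 lay above all lymph node arrays and spleen array 3 below them. Mcm4 and Mcm6, with differences of 0.54 and 0.39, were low on spleen array 3 (7.93 and 7.97) and high on spleen arrays 1 and 2 (8.65 to 9.08 and 8.92 to 9.04). The sign of an MCM difference depended on the probe set, since it was shared by 3 of 5 probe sets for Mcm3, 1 of 2 for Mcm6 and 3 of 4 for Mcm7. It also depended on the arrays, since Mcm2, Mcm5 and Mcm7 turned below 0 in at least 1 of the 6 fits that leave out an array (lowest values -0.11, -0.21 and -0.19).

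Of the genes that load and start the helicase, Cdc45 was the replication member whose groups did not overlap, with levels of 4.12, 4.10 and 4.22 against 4.24, 4.51 and 4.41, a difference of 0.24 (adjusted p = 0.459). Cdc6, the loader of the helicase, lay at 3.62 on lymph node array 3 and at 4.98 to 5.94 on the other 5 arrays. Gins1, a partner of Cdc45 at the fork, had a difference of -0.41. The sliding clamp gene Pcna had levels of 10.67, 10.73 and 10.08 in the lymph node arrays and 10.61, 10.77 and 10.28 in the spleen arrays. Array 3 was the lowest of its group in both organs, and the difference was 0.06 (interval -0.47 to 0.60, adjusted p = 0.921). The clamp loader genes Rfc3 and Rfc4 and the polymerase gene Pola1 had differences of -0.06, -0.08 and -0.10, while the primase gene Prim1 had 0.59 by its brightest probe set (adjusted p = 0.313), a sign held by 1 of its 2 probe sets.

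For the nucleotide supply, Rrm2, the regulated subunit of ribonucleotide reductase, had levels of 7.30, 8.28 and 7.04 in the lymph node arrays and 8.16, 8.12 and 6.60 in the spleen arrays. Its range within the spleen arrays, 1.56, was far above its difference of 0.08 between the organs (interval -1.03 to 1.20, adjusted p = 0.953). The gene of the larger subunit, Rrm1, had a difference of -0.01. Tyms, thymidylate synthase, had levels of 4.43, 3.66 and 4.22 against 5.27, 4.08 and 5.26, which was the largest difference of the replication members at 0.77 (interval -0.06 to 1.60, adjusted p = 0.301). These Tyms levels lay below that of the median gene, and 2 of its 3 probe sets had this sign. Tk1, thymidine kinase, had a difference of -0.27.

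In most mitosis and replication members, as in most genes, the SD between arrays of a group exceeded the difference between the organs. The SD within groups had a median of 0.52 over the mitosis members, 0.42 over the replication members and 0.28 over the G1 members, against 0.25 over all genes. It exceeded the upper quartile of all genes, 0.36, in 18 of 20 mitosis members, 12 of 18 replication members and 3 of 8 G1 members. It was larger than the difference between the organs, whatever its sign, in 18 of 20 mitosis members, 12 of 18 replication members and 3 of 8 G1 members, against 53.6% of all genes. These counts have no test, since the members share their arrays and many vary together.

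**Figure D2:**
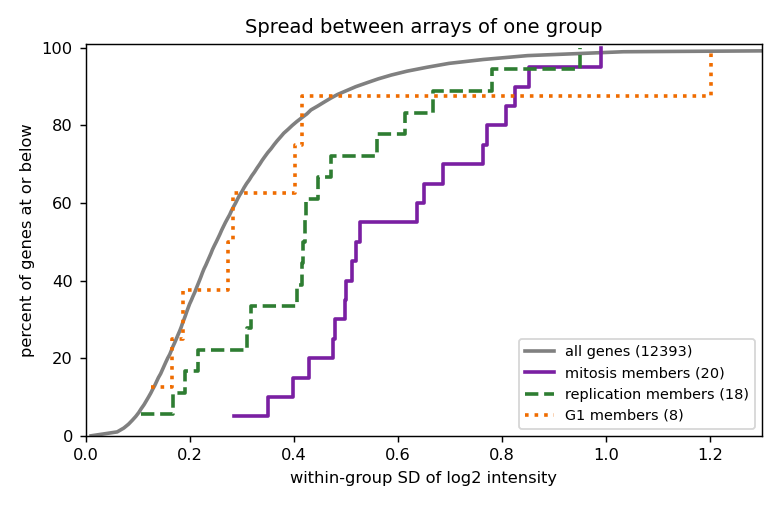
Cumulative percentage of genes against the SD of log2 intensity within groups (both groups pooled, 3 arrays each), for all 12393 genes and for the mitosis, replication and G1 members. The curve of the mitosis members lies to the right of the others over most of its range, with a median of 0.52 against 0.25 for all genes.

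The mitosis members moved together along the arrays. When each gene was centred on its own mean over the 6 arrays, the median over the 20 mitosis members was -0.15, 0.56 and -0.31 in lymph node arrays 1, 2 and 3, and 0.07, 0.58 and -0.63 in spleen arrays 1, 2 and 3. Array 2 was thus the highest and array 3 the lowest in both organs. Lymph node array 2 was the highest of its group for 18 of 20 mitosis members (90.0%), against 31.2% of all genes, and spleen array 2 for 15 of 20 (75.0%), against 27.7%. Spleen array 3 was the lowest of its group for 16 of 20 (80.0%), against 29.8% of all genes. Both features, lymph node array 2 highest and spleen array 3 lowest, were found in 14 of 20 mitosis members (70.0%), against 9.59% of all genes. These 14 were Mki67, Top2a, Ccna2, Ccnb2, Cdk1, Bub1, Aurkb, Birc5, Cdc20, Cenpe, Cenpa, Kif11, Nusap1 and Prc1, which include the survivin gene Birc5 and the motor gene Kif11. Both features were read from the order of these same members, so that their count is a description and not a test.

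The replication members followed another order. Their centred medians were 0.02, 0.14 and -0.33 in lymph node arrays 1, 2 and 3 and 0.40, 0.27 and -0.33 in spleen arrays 1, 2 and 3. As with the mitosis members, array 3 was the lowest of its group for most of them, 13 of 18 (72.2%) in each organ, against 36.0% of all genes in the lymph node arrays and 29.8% in the spleen arrays. Unlike them, they had no single highest array, since lymph node array 2 was the highest of its group for 8 of 18 and lymph node array 1 for another 8. Spleen array 1 was the highest of its group for 9 of 18 and spleen array 2 for 7. Both features named above were shared by 7 of 18 replication members (38.9%). The medians of the organ difference, 0.07 for replication and -0.05 for mitosis, lay 0.12 apart, and this gap ranged from 0.02 to 0.33 with 1 array left out. With 1 array left out, the replication median ranged from -0.13 to 0.36 and the mitosis median from -0.28 to 0.25, so that neither had a settled sign.

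**Figure D3:**
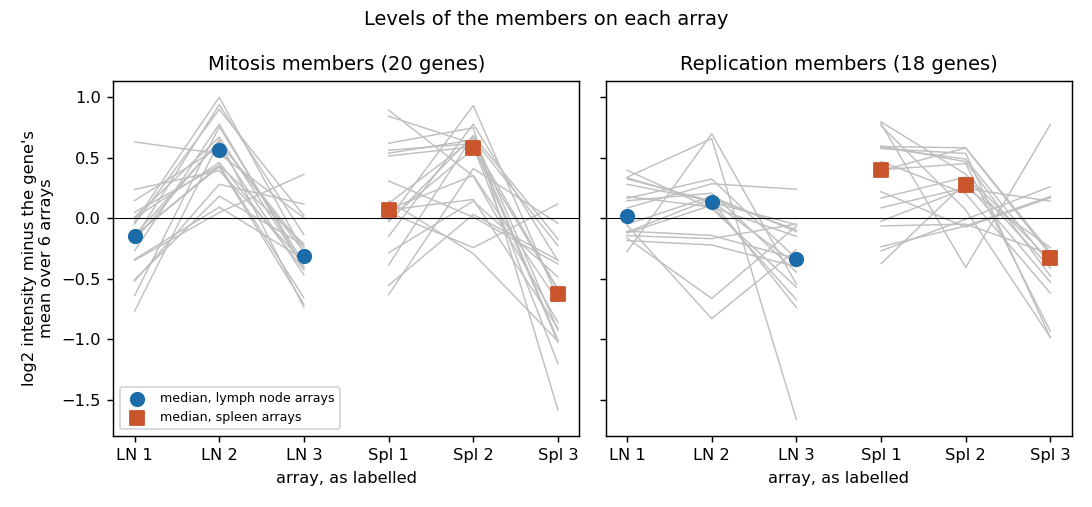
Log2 intensity of the 20 mitosis and the 18 replication members on each array, after subtracting each gene's mean over the 6 arrays; grey lines join the values of a gene within a group (the arrays have no order) and large symbols are medians over the genes. The mitosis medians are highest on array 2 (0.56 and 0.58) and lowest on array 3 (-0.31 and -0.63) of both groups, and the replication medians are lowest on array 3 (-0.33 in each group).

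Summed marker levels of other cells along the same arrays are given beside this pattern. The plasmacytoid DC markers summed to 545, 543 and 1180.0 in lymph node arrays 1, 2 and 3 and to 1896, 1532 and 5114 in spleen arrays 1, 2 and 3, so that they were highest on array 3 of each organ, where the mitosis members were lowest. The conventional DC markers summed to 18206, 18245 and 17374 in lymph node arrays 1, 2 and 3 and to 10222, 14790 and 13094 in spleen arrays 1, 2 and 3. Within the spleen arrays they were highest on array 2, as were the mitosis members, while lymph node arrays 1 and 2 were nearly equal. In the same order of arrays, the T cell markers (6 of 8 listed were measured, 1 passed as higher) summed to 390.4, 366 and 526 and to 981, 467 and 705. The B cell markers (6 of 7 measured, 0 passed) summed to 112, 124 and 137 and to 179, 119.9 and 133. The NK cell markers (5 of 6 measured, 0 passed) summed to 201, 180.2 and 656 and to 1377, 242 and 353. These 3 lists were highest on lymph node array 3 and on spleen array 1 within their groups. The erythroid precursor markers (7 of 9 measured, 0 passed) summed to 79.4, 82.0 and 100.2 and to 75.8, 71.7 and 73.2, with Gata1 at 2.17 to 2.68 and Rhag at 1.43 to 1.72, near the lowest values of the arrays (1.07 to 1.26). The neutrophil markers (7 of 7 measured, 1 passed as lower) summed to 175.5, 653 and 715 and to 128, 62.7 and 62.8, and the macrophage markers (7 of 7 measured, 0 passed) to 934, 732 and 1726 and to 921, 736 and 493. The sums of these lists, too, were highest on lymph node array 3 and on spleen array 1. The brightest macrophage marker on every array was Csf1r, which was highest on spleen array 1 of its group, as were Mertk and Spic. Adgre1 and Vcam1 were instead highest on spleen array 2, and C1qa and C1qb on spleen array 3. The plasma cell markers (6 of 6 measured, 1 passed as higher) summed to 1003, 799 and 801 and to 1034, 551.5 and 842, highest on array 1 of each organ. The brightest of them on every array was Irf4, which is also on the conventional DC list. Sdc1, the marker that passed, was instead highest on array 3 of each organ (3.88 and 8.09). Mean poly-A control levels were 6.82, 7.17 and 7.31 in lymph node arrays 1, 2 and 3 and 8.24, 7.71 and 8.29 in spleen arrays 1, 2 and 3. The part of these cells and of the control level in the order of the arrays was not tested.

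The promoters of the members were examined by sequence alone, and no motif count was set against the levels on the arrays. RefSeq promoter windows of 300 bases (build GRCm38.p6, 250 before and 50 after the start site) were found for 39 of the 47 listed genes, 43 windows in all, and for Ccna2, Aurkb, Kif20a, Mcm4, Gins1, Ccne2, Ccnd1 and Ccnd2 none is given. Textbook elements of such promoters are the E2F site of genes switched on before replication, and the cell cycle genes homology region (CHR), often beside a CCAAT box, of genes switched on before mitosis. The searches covered both strands, with TTTGAA for the CHR, CCAAT for the CCAAT box, and TTTGGCGC, TTTCCCGC, TTTGCCGC or TTTCGCGC for the E2F site; E2F matches can overlap each other. The 4 promoters below are picked examples of mitosis genes (Kif11, Cdk1) and replication genes (Mcm6, Mcm5). They give the 250 bases before the start site, 5′ to 3′ on the strand of the gene, at chr19:37376132-37376381 (plus strand), chr10:69352913-69353162 (minus), chr1:128359706-128359955 (minus) and chr8:75109259-75109508 (plus). Capitals mark every match to the 3 motifs on either strand.
Kif11: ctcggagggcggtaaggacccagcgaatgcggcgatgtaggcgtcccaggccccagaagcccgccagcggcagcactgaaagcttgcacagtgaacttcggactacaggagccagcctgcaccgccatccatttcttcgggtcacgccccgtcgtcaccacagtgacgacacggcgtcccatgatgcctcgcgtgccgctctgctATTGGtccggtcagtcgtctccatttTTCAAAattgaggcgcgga
Cdk1: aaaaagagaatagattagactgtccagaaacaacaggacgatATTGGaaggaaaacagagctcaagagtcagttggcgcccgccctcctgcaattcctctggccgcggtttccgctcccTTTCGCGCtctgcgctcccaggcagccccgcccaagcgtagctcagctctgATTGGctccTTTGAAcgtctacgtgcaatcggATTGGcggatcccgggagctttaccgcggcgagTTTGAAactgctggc
Mcm6: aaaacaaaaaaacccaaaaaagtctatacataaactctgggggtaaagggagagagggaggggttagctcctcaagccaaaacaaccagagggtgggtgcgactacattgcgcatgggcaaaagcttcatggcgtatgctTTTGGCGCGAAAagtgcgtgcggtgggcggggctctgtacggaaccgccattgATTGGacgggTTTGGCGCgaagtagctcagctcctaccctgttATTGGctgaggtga
Mcm5: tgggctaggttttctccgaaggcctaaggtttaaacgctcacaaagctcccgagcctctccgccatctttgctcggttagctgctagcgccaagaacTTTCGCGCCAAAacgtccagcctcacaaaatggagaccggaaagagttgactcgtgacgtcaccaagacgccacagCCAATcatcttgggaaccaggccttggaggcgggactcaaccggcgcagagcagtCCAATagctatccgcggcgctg

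Kif11 held a CHR match (TTCAAA, the reverse complement) 19 to 14 bases before the start and a CCAAT box on the reverse strand at 45 to 41 bases. Cdk1 held CHR matches starting 71 and 15 bases before the start, CCAAT boxes on the reverse strand and 1 E2F match starting 131 bases before it. Mcm6 held 3 E2F matches before the start, a pair of them overlapping, and Mcm5 held 2 that overlap. Both also held CCAAT boxes. Counting all windows of the listed genes, Ccnb1 included, the CHR was found in 14 of 19 mitosis windows (73.7%), 2 of 17 replication windows (11.8%) and 0 of 7 G1 windows, against 17.9% of all 32851 promoter windows. Together with a CCAAT box it was found in 14 of 19 mitosis windows, against 6.95% of all windows. The CCAAT box by itself was frequent in both classes, in 17 of 19 mitosis windows (89.5%) and 13 of 17 replication windows (76.5%), against 37.4% of all windows. The E2F site was found in 7 of 17 replication windows (41.2%) and 1 of 19 mitosis windows (5.26%), that of Cdk1, against 2.26% of all windows. A match is a string of letters and not a measured binding site, and a window without it shows only that these letters are absent there.

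Among the classes of members, the G1 members were the one in which the organs stood apart most often. The groups did not overlap for 5 of these 8 genes, 3 lower and 2 higher in the arrays labelled spleen, against 12.7% and 11.8% of all genes. In a wider list of G1 genes given below it was 10 of 34 (29.4%), against 24.5% of all genes and 33.5% of genes above the median level. The share in these 8 picked genes thus does not describe G1 genes at large. Cyclin D1, D2 and D3 are the cyclins that signals from outside the cell switch on, and partners of Cdk4 and Cdk6. Ccnd1 had levels of 9.56, 9.60 and 9.23 in the lymph node arrays and 8.34, 8.56 and 8.43 in the spleen arrays. All spleen arrays were below all lymph node arrays, with means of 8.44 ± 0.11 (SD, n = 3) and 9.46 ± 0.21 (SD, n = 3), a difference of -1.02 ± 0.17 (SE; limma adjusted p = 0.0270). All 3 probe sets of Ccnd1 had this sign, with differences of -1.02, -1.14 and -0.37. Ccnd1 passed in 12 of 15 alternatives and missed the threshold in 3 fits that each left out an array. Without lymph node array 1 its difference was -0.97 (adjusted p = 0.134), without lymph node array 2 it was -0.95 (0.130), and without spleen array 1 it was -0.97 (0.0834). Beside Ccnd1, plasmacytoid DC markers had a median difference of 1.67 and conventional DC markers one of -0.56, the poly-A controls stood higher in the arrays labelled spleen, and their part in this difference was not tested.

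Ccnd3 had levels of 6.42, 6.91 and 6.45 in the lymph node arrays and 5.92, 5.83 and 5.41 in the spleen arrays. The groups did not overlap either, but the difference of -0.87 ± 0.21 (SE) did not pass (adjusted p = 0.0705). Ccnd2 had levels of 9.33, 9.21 and 8.99 against 9.53, 9.17 and 9.19, with a difference of 0.12 and an interval from -0.29 to 0.54 (adjusted p = 0.781). By this brightest probe set, the spleen arrays thus lay among or above the lymph node arrays for Ccnd2. Its sign was held by 4 of 7 probe sets, with differences of 0.07 to 0.15. The others had -0.13, -0.54 and -0.70. In the probe sets with -0.54 and -0.70 all spleen arrays lay below all lymph node arrays, and neither passed (limma adjusted p over probe sets 0.229 and 0.107). The mean of all probe sets of Ccnd2 gave -0.14. Whether the 3 cyclins differ from each other in their response was not tested.

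Cyclin E, with Cdk2, carries the cell into replication, and E2f1 is the factor that drives its gene. Ccne1 had levels of 5.47, 5.54 and 5.46 in the lymph node arrays and 5.37, 5.70 and 5.46 in the spleen arrays, with a difference of 0.02 (interval -0.35 to 0.39, adjusted p = 0.967). Ccne2 had levels of 3.87, 3.98 and 3.51 against 4.19, 5.13 and 4.31. All of its spleen arrays were above all lymph node arrays, but the levels were under that of the median gene and the difference of 0.76 ± 0.28 (SE) did not pass (adjusted p = 0.188). E2f1 had levels of 6.19, 6.15 and 5.79 against 5.64, 6.64 and 5.75 (difference -0.03, interval -0.69 to 0.62, adjusted p = 0.967), with the highest and the lowest value both among the spleen arrays.

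The CDK inhibitors had differences of opposite sign. Cdkn1a encodes p21, which p53 induces to halt the cycle, and had levels of 6.68, 6.84 and 4.12 in the lymph node arrays and 8.41, 7.78 and 6.92 in the spleen arrays. The groups did not overlap, but lymph node array 3 stood far below the others and spleen array 3 lay just above lymph node array 2. The difference of 1.82 ± 0.72 (SE) did not pass (adjusted p = 0.225), and it was 0.94 to 2.30 with 1 array left out. Cdkn1b encodes p27, the inhibitor that accumulates in resting cells, and had levels of 9.66, 9.47 and 9.07 against 9.03, 8.50 and 8.79. Its groups did not overlap, but lymph node array 3 (9.07) and spleen array 1 (9.03) were close, and the difference of -0.62 ± 0.22 (SE) did not pass (adjusted p = 0.172). Both probe sets of each inhibitor had the same sign.

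**Figure D4:**
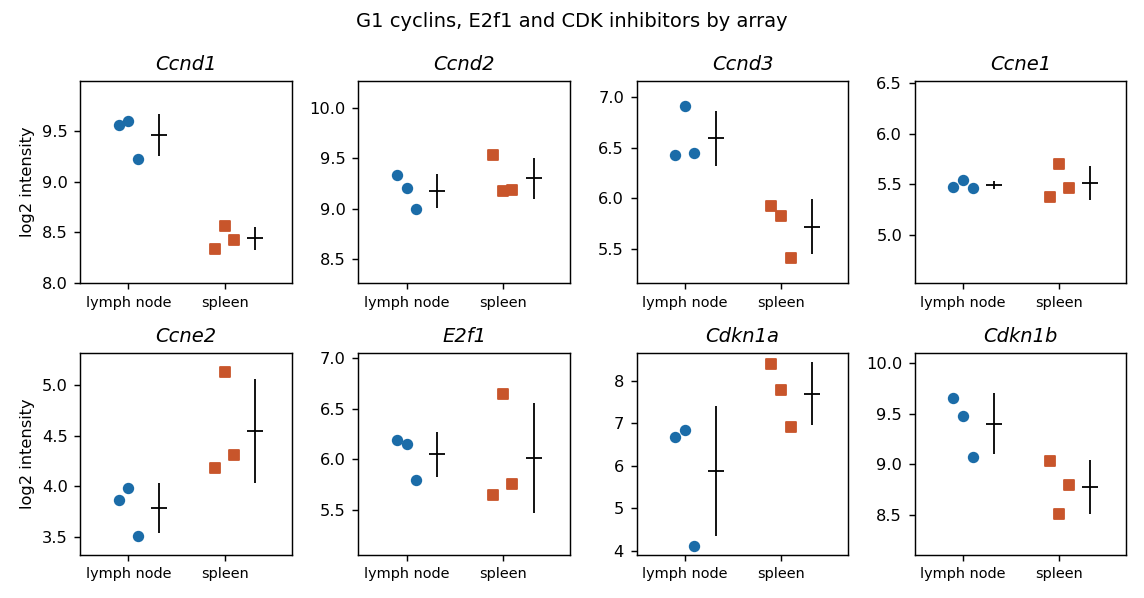
Log2 intensity of the 8 G1 members on each array (blue circles: labelled lymph node; orange squares: labelled spleen; black: mean and SD of 3 arrays); each panel has its own range of at least 2 log2 units. For Ccnd1, Ccnd3 and Cdkn1b all spleen arrays lie below all lymph node arrays, for Ccne2 and Cdkn1a above, and for Ccnd2, Ccne1 and E2f1 the groups overlap.

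A wider list of 136 cell cycle genes that are not among the members was read in the same fit, of which 117 were measured. In it 2 passed as higher in the arrays labelled spleen and 0 as lower, both in the role of inhibitors and arrest. All genes passed as higher in 2.03% of cases and as lower in 1.37%, so that 2 of 117 is near the background. Gadd45a, a stress-induced gene of growth arrest, had levels of 3.70, 3.45 and 3.78 in the lymph node arrays and 5.99, 5.38 and 5.67 in the spleen arrays. The groups were far apart and the fold was 4.11 (adjusted p = 0.00550), although the lymph node levels were low for the array, so that its size is uncertain. Ccng2, an atypical cyclin of cells that leave the cycle, had levels of 7.18, 6.72 and 6.98 against 8.44, 8.26 and 8.16, or 2.51-fold (adjusted p = 0.0127). Ccng2 missed the threshold with lymph node array 1 removed (adjusted p = 0.0528) or with lymph node array 2 removed (0.0756), while Gadd45a passed in 14 of 14 alternatives.

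In the replication part of the wider list 0 of 38 genes passed. The flap endonuclease gene Fen1 (8.84, 9.02 and 8.79 in the lymph node arrays against 10.43, 9.63 and 9.73 in the spleen arrays; adjusted p = 0.0556) and the maintenance methyltransferase gene Dnmt1 (8.54, 8.66 and 8.56 against 9.77, 9.43 and 9.15; adjusted p = 0.0548) came closest. In both, all spleen arrays were above all lymph node arrays. The groups did not overlap for 4 of the 38 genes (10.5%), a smaller share than the 24.5% of all genes. Across the alternatives, Dnmt1 passed in 4 of 15 (adjusted p from 0.0255 to 0.211) and Fen1 in 3 of 15 (0.0312 to 0.206), both with array weights, with a trend and robust model, and with low genes left out. Dbf4 and Gmnn, the activator and the inhibitor of origin use, had differences of 0.69 (adjusted p = 0.175) and 0.38 (0.381), and the nucleotide supply genes Rrm2b and Dtymk had 0.30 (0.430) and 0.14 (0.730).

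In the mitosis part of the wider list 0 of 45 genes passed. Ccnf (-1.21, adjusted p = 0.0660), Mybl2 (0.63, 0.0660) and Incenp (0.78, 0.0890) had the smallest adjusted p, and only 1 of the 3 probe sets of Incenp had this sign. Ccnf and Mybl2 lay at 2.54 to 4.36, far under the median gene. Ccnf passed in 3 of 14 alternatives (adjusted p from 0.0472 to 0.214) and Mybl2 in 1 of 14 (0.0387 to 0.694). Cenpn (0.65, 0.320), Racgap1 (0.32, 0.459), Smc2 (0.26, 0.776), Tpx2 (-0.74, 0.479) and Kif4 (-0.30, 0.516) did not pass. The array order of the mitosis members was seen here in part. Lymph node array 2 was the highest of its group for 38 of 45 genes (84.4%) and spleen array 3 the lowest for 33 of 45 (73.3%), and both held for 28 of 45 (62.2%), against 9.59% of all genes. The highest spleen array was not shared, since spleen array 2 was the highest for 22 of 45 genes (48.9%) and spleen array 1 for 21 of 45 (46.7%). Among the 28 genes with both features were Aspm, Hmmr, Nuf2, Ndc80 and Melk. Of the 38 wider replication genes 13 had both (34.2%).

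In the G1 part of the wider list, Gadd45a and Ccng2 were the genes that passed of 34. The groups did not overlap for 10 of the 34 (29.4%), against 24.5% of all genes. Of these 10, 7 were higher and 3 lower in the arrays labelled spleen. The kinase partner of the D cyclins, Cdk4, had levels of 7.55, 7.45 and 6.97 in the lymph node arrays and 6.18, 6.87 and 6.69 in the spleen arrays. All spleen arrays were below all lymph node arrays, as for Ccnd1, but the difference of -0.74 did not pass (adjusted p = 0.149). Myc (-0.37, 0.221), E2f4 (-0.69, 0.0951) and the Rb relative Rbl1 (0.69, 0.196) did not pass either, with groups that did not overlap in any of the 3; E2f4 passed in 2 of 14 alternatives (0.0420 to 0.296).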

How the data were processed

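Total RNA of sorted DCs was measured on 6 arrays, 3 per organ. Per the labels' protocols, only RNA with an integrity number above 8.4 was used, 20 ng of carrier RNA was added in extraction, and 2 ng of total RNA was amplified. The authors deposited intensity values on a linear scale, rounded to 1 decimal; RMA and limma are named in the submitters' processing notes, and their versions are not given in the sources used here. If the deposited values are the output of RMA, which is on the log2 scale, they were made linear again before deposit. Any floor or scaling added then is unknown. There are no detection calls or depth, and the number of arrays limits the precision.

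Groups came from the sample titles. Of 22690 probe sets, 64 were controls, 20380 others had 1 gene symbol, 691 several and 1555 none, and a gene was read from its one-symbol probe set with the highest mean log2 value. Of the members, 24 had several probe sets, which had a common sign in 11. Spleen was compared with lymph node with limma 3.58.1 under R 4.3.3 (functions lmFit and eBayes, two-sided, Benjamini-Hochberg adjustment over 12393 genes, threshold 0.05), tested on simulated data. Values in every array are given for members that passed, members with groups apart and a difference of at least 0.5, and 20 fixed members. In the wider list the genes named are those that passed or else, in each role, the 2 with the smallest adjusted p, mostly with their difference and adjusted p alone. Aurka, Cdc6, Cdc45, Mcm4, Mcm6 and other members outside this rule were chosen after their values were seen. The members and lists were chosen with earlier results of these data known. The alternatives changed the scaling (centring on the median, or quantile normalization once more), the genes (those above the median level), the model (trend and robust eBayes, array weights, or the replicate number as a block), the arrays (1 left out in turn), the gene value (averaging its probe sets, or adding 16 before log2) and the threshold (0.01, or also 2-fold); leaving out both arrays numbered 3 was added after seeing the data. Promoter windows are from RefSeq.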

Additional observations from a re-analysis of the deposited data

How the results depend on the processing

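The number of genes past the threshold, 421, became 764 with array weights, 63 at an adjusted p of 0.01 and 47 to 475 with 1 array left out (56 without lymph node array 1, 47 without lymph node array 2, 130 without spleen array 1); the cause was not tested. The members past the threshold as lower in spleen, 1, became 2 with the filter at the median level, which added Ccnd3 (adjusted p = 0.0470) and tests fewer genes, 0 at 0.01, and 0 to 1 with 1 array left out. The same-numbered arrays of the organs had correlated deviations of 0.02, 0.24 and 0.16 (Pearson r across genes), against -0.28 to 0.13 in the other pairs. Not every array correlated best with its own number, and this check cannot settle whether the numbers pair the arrays. With the replicate block 519 genes passed, and 1 member passed as higher, Cdkn1a (1.82, adjusted p = 0.0471). The median difference of the G1 members, -0.01, was -0.21 to 0.070 with 1 array left out and -0.21 without spleen array 2. Signs turned, for differences that had not passed, with array weights in Mcm5 (-0.0078) and E2f1 (0.00076), with the mean of all probe sets in Ccnd2 (-0.14) and Dtymk (-0.057), and without both arrays numbered 3 in Mcm2 (-0.14) and Pcna (-0.0058); the cause was not tested. With 1 array left out, the differences ranged from -0.18 to 0.65 for Ccnb2, -0.075 to 0.090 for Ccne1, -0.35 to 0.15 for E2f1, -0.11 to 0.40 for Mcm2, -0.21 to 0.29 for Mcm5, -0.19 to 0.35 for Mcm7, -0.14 to 0.20 for Pcna, -0.17 to 0.15 for Plk1, -0.18 to 0.60 for Rrm2 and -0.57 to 0.24 for Top2a, and each turned sign in at least 1 of these 6 fits. Without both arrays numbered 3, 1 member passed as lower and 0 as higher, and the mitosis and replication medians were 0.17 and 0.18. Without counts or detection calls, levels near the bottom of the scale, as of Ccne2, Tyms, Cdc45, Ccnf and Mybl2, cannot be told from background.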
